A study of Rattus norvegicus with 8 samples.

Results

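Complement and coagulation factors, the plasma proteins with which the liver defends the blood and stops bleeding, were followed as a set of 37 genes in the liver of adult male Sprague-Dawley rats. A gene entered by its symbol, through the RefSeq accession of its array probe, and was represented by its brightest Cy5 probe, provided that 4 or more of the 8 arrays called this probe well above background. Of the 37 genes, 32 were measured this way, among 10004 named genes in all. No probe matched the other 5, C5, C8g, F5, F11 and F13b, so these are not analysed here. The measured set held 15 complement genes, 10 clotting genes and 7 genes of anticoagulants and fibrinolysis.

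The control group were offspring of dams that received corn oil alone. The AhR group were offspring of dams given a mixture of agonists of the aryl hydrocarbon receptor (non-ortho polychlorinated biphenyls, dioxins and furans) at a daily dose of 1.8 ng TCDD equivalents per kg. Both groups stayed with their birth mothers, treatment ran from gestation day 0 to postnatal day 20, and livers were taken at 78 to 86 days of age. A group was read on 4 arrays, and an array held the pooled RNA of 2 rats; the labels do not say which pools shared a litter, and p-values measure the spread between these arrays. Liver was labelled with Cy5 throughout and the common reference, described as RNA of 14 rat cell lines, with Cy3, so a value is a log2 ratio of liver over reference.

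Complement is a cascade of proteases that mark microbes for removal. Mannose-binding lectins with their MASP proteases, or other recognition molecules, activate C2, C4 and the central component C3, factors B and D amplify C3 cleavage, and the terminal components C5 to C9 assemble a membrane pore. Coagulation is a parallel cascade in which vitamin K-dependent proteases converge on prothrombin (F2), whose product thrombin turns fibrinogen into fibrin. Antithrombin (Serpinc1) and the protein C system restrain it, and plasmin, made from plasminogen (Plg), dissolves the clot. Hepatocytes make most of these proteins, and several, fibrinogen and C3 among them, belong to the acute phase response.

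Each measured gene of the set was well above background in both channels on all 8 arrays, and no spot of them was saturated. Their mean Cy5 signal ran from 535 units for Pros1 to 363768 for C3, against a local background of 71 to 76 units. In the reference channel the same probes gave mean Cy3 signals of 328 (Pros1) to 144111 units (Fgb), so the reference also gave signal for these liver genes, which the labels' description of cell lines does not explain. What a ratio to this reference says about liver is therefore uncertain. All arrays lay on 1 slide and 1 scan, with 4 arrays, 2 of each group, in each of its 2 rows. All 15 hepatocyte markers were measured, Alb and Apoa1 among them, with a median AhR minus control difference of -0.02 (0.01 with median centring). The median difference was 0.15 over 11 Kupffer cell markers, 10 of them higher in AhR, and 0.13 over 7 endothelial markers, 7 higher. It was 0.10 over 10 stellate cell markers, 9 higher, and -0.35 over 5 red cell markers, all lower. Control replicate 1 was the lowest of the 8 arrays for each Kupffer cell marker except Lyz2, at -0.84 for C1qa. The other C1qa controls ran from -0.02 to 0.34, against -0.13 to 0.56 in AhR. Control replicate 2 was the highest array for all 5 red cell markers, at 0.89 for Hbb. How far these directions rest on single control arrays was not tested. The median was 0.10 over 5 cholangiocyte markers, 4 of them higher, and -0.06 over 6 lymphocyte markers, 1 higher. Over 3 neutrophil markers it was -0.11, 0 higher, and over 3 platelet markers -0.03, 1 higher. Limma called none of these markers at an adjusted p under 0.05. The stellate marker Dcn, which encodes decorin, had an unadjusted limma p under 0.05 and groups that did not overlap, with a difference of 0.33 (SE 0.11), and the groups of the endothelial marker Tie1, a vascular receptor, did not overlap either, at 0.21 (SE 0.10). Over all named genes, 1.62% had an unadjusted limma p under 0.05 and 1.2% had groups that did not overlap. Dcn and Tie1 were named after their values were seen. The summed Cy5 signal of the Kupffer cell markers was 50263 to 93821 units in control and 65287 to 117130 in AhR, and that of the red cell markers 335109 to 487821 and 247182 to 580946, so the groups overlapped in both. The endothelial sums were 9792 to 14949 and 12228 to 19964, and the stellate sums 13292 to 21720 and 17153 to 31794, also overlapping. All these sums were background-corrected but not normalized between arrays. The median raw Cy5 signal of an array ran from 159 units (control replicate 1) to 232 (AhR replicate 2), so the sums also carry array brightness. The part of these cell types in the values of the set was not tested. In bulk liver, fewer cells of a type and less RNA per cell cannot be told apart.

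No complement or coagulation gene passed the test for a difference between AhR and control livers. Of the 32 genes, 0 had an adjusted p under 0.05 in limma (Benjamini-Hochberg over 17859 probes), where 0% of all probes were called. At an unadjusted p under 0.05, limma gave 0 of them, against 1.61% of all probes and 1.62% of named genes, and the lowest unadjusted p was 0.116, for Pros1. The ranges of the 2 groups overlapped for all 32, while 1.2% of named genes had groups that did not overlap.

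The estimated differences ran from -0.41 for Klkb1, which encodes plasma prekallikrein, to 0.14 for Masp1, with a median of -0.02 over the set and -0.0014 over all named genes. For 31 of 32 the estimate was under 0.2 in size, Klkb1 being the exception. The 95% interval lay within 1.5-fold in either direction for 30 of 32 (93.8%), against 91.7% of named genes, and Klkb1 and F9 were the 2 outside it. Within complement, 9 of 15 means were higher in AhR (median difference 0.03), within clotting 3 of 10 (-0.04), and within anticoagulants and fibrinolysis 2 of 7 (-0.09). Over named genes 49.5% of means were higher in AhR. With each array centred on its median in place of a loess fit, 19 of 32 means were higher rather than 14. The count was 12 with Cy5 alone and also 12 with the mean over the probes of a gene. With the mean over probes, the complement genes Masp1 and C8a both turned to -0.02. As none of these differences passed, the signs are those of the means only.

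**Figure D1:**
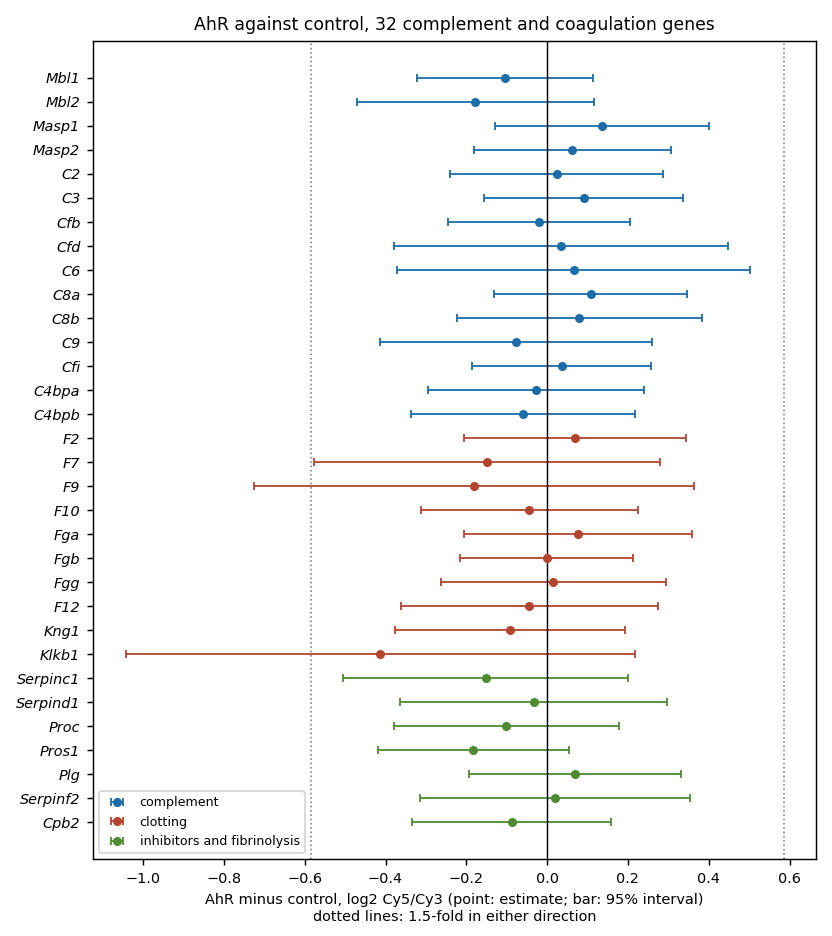
AhR minus control differences in log2 Cy5/Cy3 of the 32 measured genes, points for limma estimates and bars for 95% intervals, coloured by complement, clotting, and inhibitors with fibrinolysis (4 arrays per group). Every interval crosses 0, and those of Klkb1 and F9 reach beyond the dotted lines at 1.5-fold.

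The lectin pathway starts with the mannose-binding lectins, which recognise microbial sugars, and the MASP proteases bound to them. Mbl2, the liver gene for mannose-binding lectin C, measured 0.49, 0.14, 0.17 and 0.15 in control replicates 1 to 4 and -0.25, 0.30, 0.03 and 0.15 in AhR replicates 1 to 4. Control replicate 1 was high and AhR replicate 1 low, and the other 6 arrays lay between 0.03 and 0.30. The difference was -0.18 (SE 0.13, 95% interval -0.47 to 0.11, limma p = 0.207, exact permutation p = 0.371). Masp1, which encodes a protease of this complex, measured 0.48, 0.03, 0.18 and 0.41 in control replicates 1 to 4 and 0.39, 0.43, 0.25 and 0.57 in AhR replicates 1 to 4. Control replicates 2 and 3 were the lowest, and the groups overlapped. Its difference was 0.14 (SE 0.12, 95% interval -0.13 to 0.40, limma p = 0.282, exact permutation p = 0.314), but 2 dimmer Masp1 probes gave -0.13 and -0.06, so that the mean over its probes was -0.02. Mbl1, for mannose-binding lectin A, differed by -0.10 (SE 0.10), and Masp2, the protease that cleaves C4 and C2, by 0.06 (SE 0.11). Of the 4 lectin pathway genes, 2 had higher and 2 lower means in AhR.

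C3 is the hub on which the complement pathways meet. Its ratio was 0.61, 0.54, 0.84 and 0.81 in control replicates 1 to 4 and 1.00, 0.69, 0.67 and 0.81 in AhR replicates 1 to 4, with liver above reference on every array. AhR replicate 1 was the highest and control replicate 2 the lowest, and the group means were 0.70 ± 0.15 (control, SD, n = 4) and 0.79 ± 0.15 (AhR, SD, n = 4). The difference was 0.09 (SE 0.11, 95% interval -0.16 to 0.34, limma p = 0.434, exact permutation p = 0.429). Read in each channel apart after quantile normalization, C3 differed by 0.04 in Cy5 and -0.07 in Cy3. C2 and factor B (Cfb) supply the protease of the C3 convertases. C2 measured -0.10, -0.11, 0.31 and 0.23 in control replicates 1 to 4 and 0.22, -0.04, 0.09 and 0.15 in AhR replicates 1 to 4, with both extremes among the controls, and differed by 0.02 (SE 0.12, 95% interval -0.24 to 0.29, limma p = 0.848, exact permutation p = 0.886); a second C2 probe gave -0.01. Cfb stayed in a narrow range, 0.26, 0.19, 0.45 and 0.17 in control replicates 1 to 4 and 0.16, 0.23, 0.17 and 0.42 in AhR replicates 1 to 4, with control replicate 3 and AhR replicate 4 the highest. Its difference was -0.02 (SE 0.10, 95% interval -0.25 to 0.20, limma p = 0.842, exact permutation p = 0.714).

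Factor D (Cfd), the protease that cleaves factor B and is made above all by fat cells, varied far more. It measured -0.67, -0.01, -0.04 and -0.14 in control replicates 1 to 4 and -0.40, -0.49, 0.24 and -0.08 in AhR replicates 1 to 4. Control replicate 1 and AhR replicates 1 and 2 were low, AhR replicate 3 was high, and the difference was 0.03 (SE 0.19, 95% interval -0.38 to 0.45, limma p = 0.857, exact permutation p = 0.943). Among adipocyte markers Plin1 matched no probe, and Adipoq and Lep did not pass the filter on Cy5, so the part of fat tissue in these Cfd values was not tested. Within this group of 4 genes, 3 means were higher and 1 lower in AhR.

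The terminal components C6, C8 and C9 build the membrane attack complex; C8 joins chains from separate genes, C8a, C8b and C8g, and C9 polymerises into the pore. C6 measured 0.31, -0.08, -0.26 and -0.14 in control replicates 1 to 4 and 0.18, 0.50, -0.10 and -0.48 in AhR replicates 1 to 4. AhR replicates 2 and 4 held the highest and the lowest value of all arrays, so the spread within AhR exceeded the difference of 0.07 (SE 0.20, 95% interval -0.37 to 0.50, limma p = 0.745, exact permutation p = 0.800). C8a measured -0.19, -0.05, 0.17 and 0.18 in control replicates 1 to 4 and 0.24, 0.10, 0.02 and 0.17 in AhR replicates 1 to 4. C8b measured -0.21, -0.06, 0.37 and 0.37 in control replicates 1 to 4 and 0.16, 0.19, 0.17 and 0.27 in AhR replicates 1 to 4. For both C8 chains control replicates 1 and 2 were the lowest arrays. C8a differed by 0.11 (SE 0.11, 95% interval -0.13 to 0.35, limma p = 0.342, exact permutation p = 0.343) and C8b by 0.08 (SE 0.14, 95% interval -0.22 to 0.38, limma p = 0.573, exact permutation p = 0.571). In the Cy5 channel alone C8b differed by 0.02 and in the Cy3 reference by -0.08, while C8a differed by 0.09 and -0.04. A second, dimmer C8a probe gave -0.15 (SE 0.12), of opposite sign, and the mean of both C8a probes gave -0.02. C9 differed by -0.08 (SE 0.15). Thus 3 of the 4 measured terminal genes had higher means in AhR.

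The C8a and C8b promoters are shown because both chains enter 1 protein. Each is the RefSeq window of GRCr8 from 250 bases before to 50 bases after the gene start (chr5:124866582-124866881, minus strand for C8a and chr5:124763864-124764163, plus strand for C8b), written 5′ to 3′ along the gene. Capitals mark matches to 3 short motifs or their reverse complements, none of which overlapped in the windows shown: TTGCNNAA, a C/EBP motif, CTGGGAA, an element of interleukin-6 responses, and GCGTG, the core bound by the AhR.
C8a: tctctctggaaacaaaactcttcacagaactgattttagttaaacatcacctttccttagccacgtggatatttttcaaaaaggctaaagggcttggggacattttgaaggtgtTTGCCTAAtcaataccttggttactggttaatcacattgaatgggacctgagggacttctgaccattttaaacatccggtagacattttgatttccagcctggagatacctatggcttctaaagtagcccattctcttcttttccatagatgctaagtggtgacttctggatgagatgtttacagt
C8b: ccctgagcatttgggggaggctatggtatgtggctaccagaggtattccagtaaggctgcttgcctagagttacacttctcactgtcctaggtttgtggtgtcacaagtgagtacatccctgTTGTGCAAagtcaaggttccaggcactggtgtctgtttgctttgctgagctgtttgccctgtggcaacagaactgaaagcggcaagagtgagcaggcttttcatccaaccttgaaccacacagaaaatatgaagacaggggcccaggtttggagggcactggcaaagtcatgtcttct

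Complement is held in check by factor I (Cfi), the protease that cuts C3b and C4b, and by C4b-binding protein, its cofactor, whose alpha and beta chains come from C4bpa and C4bpb. Cfi, read from 10 spots per array, measured 0.26, 0.0016, 0.20 and 0.16 in control replicates 1 to 4 and 0.18, 0.36, 0.03 and 0.19 in AhR replicates 1 to 4. AhR replicate 2 was the highest and control replicate 2 the lowest. The difference was 0.04 (SE 0.10, 95% interval -0.19 to 0.26, limma p = 0.731, exact permutation p = 0.714). C4bpb measured -0.09, 0.19, -0.07 and -0.34 in control replicates 1 to 4 and -0.35, -0.0041, -0.14 and -0.07 in AhR replicates 1 to 4, with control replicate 4 and AhR replicate 1 similarly low, and differed by -0.06 (SE 0.13, 95% interval -0.34 to 0.22, limma p = 0.645, exact permutation p = 0.771). C4bpa differed by -0.03 (SE 0.12).

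Among the vitamin K-dependent procoagulants, factor VII (F7), which starts clotting with tissue factor, and factor IX (F9), the haemophilia B protein, varied more between arrays than most genes. F9, read from 1 spot per array, measured -0.18, 0.34, -0.20 and -0.34 in control replicates 1 to 4 and -0.64, -0.48, -0.52 and 0.53 in AhR replicates 1 to 4. AhR replicate 4 stood above the other 3 AhR arrays by over 1 log2 unit, and control replicate 2 was the next highest. The difference was -0.18 (SE 0.25, 95% interval -0.72 to 0.36, limma p = 0.478, exact permutation p = 0.543). Without AhR replicate 4 it was -0.45 (limma unadjusted p = 0.0166, adjusted p = 1.00), and within the rows of the slide it was 0.21 and -0.58, of opposite sign. F7 measured -0.34, 0.03, -0.13 and -0.78 in control replicates 1 to 4 and -0.68, -0.47, -0.65 and 0.0022 in AhR replicates 1 to 4. Its high arrays were again control replicate 2 and AhR replicate 4, and its difference was -0.15 (SE 0.19, 95% interval -0.58 to 0.28, limma p = 0.461, exact permutation p = 0.514). Prothrombin (F2) differed by 0.07 (SE 0.12) and factor X (F10) by -0.04 (SE 0.12). The F2 controls lay within 0.38 to 0.49, while AhR ran from 0.22 to 0.82.

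Fibrinogen, the clot's building block, is made of alpha, beta and gamma chains from Fga, Fgb and Fgg, neighbours on rat chromosome 2. Their promoters are shown because the chains enter 1 protein and their ratios could be set side by side. The windows are chr2:170671919-170672218, plus strand for Fga, chr2:170700826-170701125, minus strand for Fgb and chr2:170652833-170653132, plus strand for Fgg in RefSeq's GRCr8, with capitals for the same 3 motifs; RefSeq lists a second Fga start 18 bases away, with the same matches. 
Fga: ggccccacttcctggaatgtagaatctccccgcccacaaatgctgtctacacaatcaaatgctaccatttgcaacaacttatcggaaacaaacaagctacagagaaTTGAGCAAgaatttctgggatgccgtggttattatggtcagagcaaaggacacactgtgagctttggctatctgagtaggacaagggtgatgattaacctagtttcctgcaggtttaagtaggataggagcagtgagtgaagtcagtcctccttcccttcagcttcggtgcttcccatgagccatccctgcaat
Fgb: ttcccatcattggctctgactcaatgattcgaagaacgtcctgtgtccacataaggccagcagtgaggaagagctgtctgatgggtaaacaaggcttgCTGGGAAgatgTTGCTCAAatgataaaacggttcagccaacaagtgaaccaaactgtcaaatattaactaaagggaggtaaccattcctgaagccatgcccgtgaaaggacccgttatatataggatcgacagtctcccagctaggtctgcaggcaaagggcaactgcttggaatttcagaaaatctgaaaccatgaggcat
Fgg: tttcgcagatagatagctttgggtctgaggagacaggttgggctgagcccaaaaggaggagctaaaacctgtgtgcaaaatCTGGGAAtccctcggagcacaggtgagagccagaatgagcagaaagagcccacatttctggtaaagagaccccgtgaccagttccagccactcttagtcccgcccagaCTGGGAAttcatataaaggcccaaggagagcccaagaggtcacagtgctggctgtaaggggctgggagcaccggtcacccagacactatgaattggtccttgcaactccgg
Fga and Fgb each held 1 C/EBP match, Fgb also held 1 CTGGGAA, and Fgg held 2 CTGGGAA and no other match.

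Fga measured 0.28, 0.11, 0.60 and 0.62 in control replicates 1 to 4 and 0.53, 0.57, 0.49 and 0.33 in AhR replicates 1 to 4. Fgb measured 0.44, 0.28, 0.34 and 0.18 in control replicates 1 to 4 and 0.15, 0.38, 0.30 and 0.40 in AhR replicates 1 to 4. Fgg measured 0.35, 0.44, 0.61 and 0.63 in control replicates 1 to 4 and 0.42, 0.76, 0.66 and 0.26 in AhR replicates 1 to 4. All 3 chains were above reference on every array, and in each the groups overlapped almost fully. Control replicates 1 and 2 were low for Fga, control replicate 4 and AhR replicate 1 for Fgb, and control replicate 1 and AhR replicate 4 for Fgg. The differences were 0.08 (SE 0.13, 95% interval -0.20 to 0.36, limma p = 0.557, exact permutation p = 0.657) for Fga, -0.0016 (SE 0.10, 95% interval -0.22 to 0.21, limma p = 0.987, exact permutation p = 1.00) for Fgb and 0.01 (SE 0.13, 95% interval -0.26 to 0.29, limma p = 0.908, exact permutation p = 0.886) for Fgg. On the linear scale the Fgb interval was 0.861 to 1.16-fold, and that of Fgg 0.833 to 1.23-fold.

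The contact system starts clotting on charged surfaces and releases bradykinin: factor XII (F12) and prekallikrein (Klkb1) activate each other, with high-molecular-weight kininogen (Kng1) as their cofactor. Klkb1 had the widest spread of the set. It measured -0.10, -0.62, 0.22 and 0.68 in control replicates 1 to 4 and -0.12, -0.25, -1.08 and -0.01 in AhR replicates 1 to 4. Control replicate 4 was the highest and AhR replicate 3 the lowest, control replicate 2 lay below 3 of the 4 AhR arrays, and means were 0.05 ± 0.55 (control, SD, n = 4) and -0.37 ± 0.49 (AhR, SD, n = 4). The difference was -0.41 (SE 0.29, 95% interval -1.04 to 0.22, limma p = 0.177, exact permutation p = 0.343), and its interval reaches from a 0.485-fold to a 1.16-fold level in AhR. Leaving out 1 array at a time moved it between -0.63 (without control replicate 2, limma unadjusted p = 0.0370, adjusted p = 1.00) and -0.17 (without AhR replicate 3). Within the slide's rows it was -0.19 and -0.63.

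The Klkb1 promoter is shown as that of the gene that varied most between arrays (chr16:53690976-53691275, plus strand, GRCr8). Its window held 1 C/EBP match and 1 GCGTG.
Klkb1: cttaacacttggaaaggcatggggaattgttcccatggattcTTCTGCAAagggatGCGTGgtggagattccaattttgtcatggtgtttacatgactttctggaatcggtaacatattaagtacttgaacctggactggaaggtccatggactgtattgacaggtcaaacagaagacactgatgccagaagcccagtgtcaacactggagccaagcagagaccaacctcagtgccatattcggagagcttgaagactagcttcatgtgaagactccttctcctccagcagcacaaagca
Kng1 measured -0.66, -1.09, -0.55 and -0.50 in control replicates 1 to 4 and -0.78, -0.71, -0.87 and -0.81 in AhR replicates 1 to 4. It was below reference on every array, lowest on control replicate 2, with the 4 AhR arrays inside the control range. The difference was -0.09 (SE 0.13, 95% interval -0.38 to 0.19, limma p = 0.492, exact permutation p = 0.543). Rat kininogen genes are close copies of each other, so signal from Kng2 in this probe cannot be told apart; Kng2 differed by -0.09. F12 differed by -0.04 (SE 0.14). All 3 measured contact genes had lower means in AhR, none of them past the test. F12 turned positive in 3 of the 8 fits that left out 1 array, and the group's median difference of -0.09 was -0.04 with median centring.

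Antithrombin (Serpinc1) and heparin cofactor II (Serpind1) block thrombin, and protein C (Proc) with its cofactor protein S (Pros1) cuts the activated cofactors V and VIII. Pros1 measured 0.16, 0.08, 0.05 and 0.12 in control replicates 1 to 4 and -0.01, 0.13, -0.31 and -0.13 in AhR replicates 1 to 4. The controls lay close together, AhR replicates 3 and 4 were lower, and AhR replicate 2 fell inside the control range. The standard error of a Pros1 array value from its 2 spots was 0.07, above the control SD of 0.05. The difference was -0.18 (SE 0.11, 95% interval -0.42 to 0.05, limma p = 0.116, exact permutation p = 0.114), the smallest p of the set, from the dimmest of the 32 probes. Without AhR replicate 2 it was -0.25 (limma unadjusted p = 0.0400, adjusted p = 1.00). Serpinc1 measured 0.78, 0.41, 0.46 and -0.02 in control replicates 1 to 4 and 0.26, 0.42, 0.01 and 0.33 in AhR replicates 1 to 4. Control replicate 1 was far above the rest, control replicate 4 and AhR replicate 3 were near 0, and the difference was -0.15 (SE 0.16, 95% interval -0.50 to 0.20, limma p = 0.360, exact permutation p = 0.400). Proc differed by -0.10 (SE 0.13) and Serpind1 by -0.03 (SE 0.15). All 4 anticoagulant genes had lower means in AhR (median -0.13), and 0 passed the test. With median centring Serpind1 was at 0.02, above 0, and the median of the 4 at -0.07. With 1 array left out, Serpind1 turned positive in 2 of 8 fits and Proc in 1; the median of the 4 was -0.06 without AhR replicate 3.

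In fibrinolysis, Plg encodes the zymogen of plasmin, Serpinf2 its inhibitor alpha-2-antiplasmin, and Cpb2 a carboxypeptidase that protects fibrin. Plg, read from 10 spots per array, measured 0.07, 0.14, 0.41 and 0.36 in control replicates 1 to 4 and 0.55, 0.17, 0.20 and 0.33 in AhR replicates 1 to 4. Control replicates 1 and 2 were lowest, AhR replicate 1 highest, and the difference was 0.07 (SE 0.12, 95% interval -0.19 to 0.33, limma p = 0.569, exact permutation p = 0.571). Cpb2 measured -0.09, 0.10, 0.18 and 0.32 in control replicates 1 to 4 and -0.08, 0.22, 0.04 and -0.03 in AhR replicates 1 to 4. Its highest array was control replicate 4 and its lowest control replicate 1, and it differed by -0.09 (SE 0.11, 95% interval -0.34 to 0.16, limma p = 0.448, exact permutation p = 0.486). Serpinf2 differed by 0.02 (SE 0.15).

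**Figure D2:**
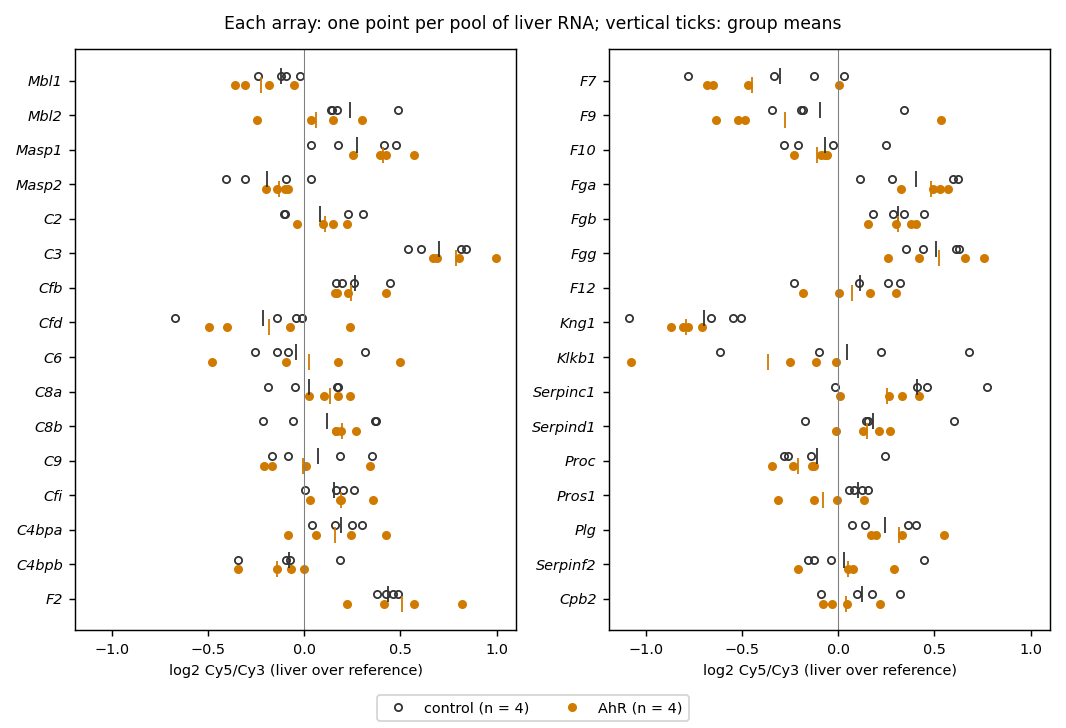
Log2 Cy5/Cy3 of each measured gene on each array, open points for the 4 control pools and filled points for the 4 AhR pools, with ticks at the group means. The groups overlap for all 32 genes; Klkb1 runs from -1.08 to 0.68 and Fgb from 0.15 to 0.44.

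Genes of the set varied between arrays of the same group by very different amounts. The median SD within groups was 0.19 over the set and 0.17 over named genes. Klkb1 had an SD of 0.52, above 98.4% of named genes, F9 0.44 (97.1%) and C6 0.34 (92.9%). At the other end stood Fgb at 0.11, above 17.8%, and Mbl1 at 0.12. For the 29 genes with repeat spots, the standard error of an array's value from its spots had a median of 0.03, which covers noise within an array only.

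The reference RNA was the same on every array, so the spread of Cy3 gives a rough technical yardstick for each probe. After quantile normalization of each channel, the SD within groups had a median of 0.15 in Cy5 and 0.08 in Cy3 over the set, and Cy5 varied more than Cy3 in 29 of 32 genes (90.6%), against 94.2% of named genes. For Klkb1 the Cy5 SD of 0.48 was 9.27 times the Cy3 SD, for C9 5.43 times, for Cfd 4.85, for F9 4.77 and for F7 4.51. The other case was C3, F2 and Serpinc1, among the brightest probes, where Cy3 varied more: 0.14 against 0.10 in Cy5 for C3, 0.10 against 0.09 for F2 and 0.15 against 0.14 for Serpinc1. For these 3 genes the liver channel thus varied less between arrays than the common reference. The channels also bear on the group differences: with Cy5 alone the sign was the same for 30 of 32 genes, and the median size of the difference was 0.06 in place of 0.07. For 12 genes, C8b and C3 among them, the difference in Cy5 alone was smaller by over 1.5 times or of the other sign.

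**Figure D3:**
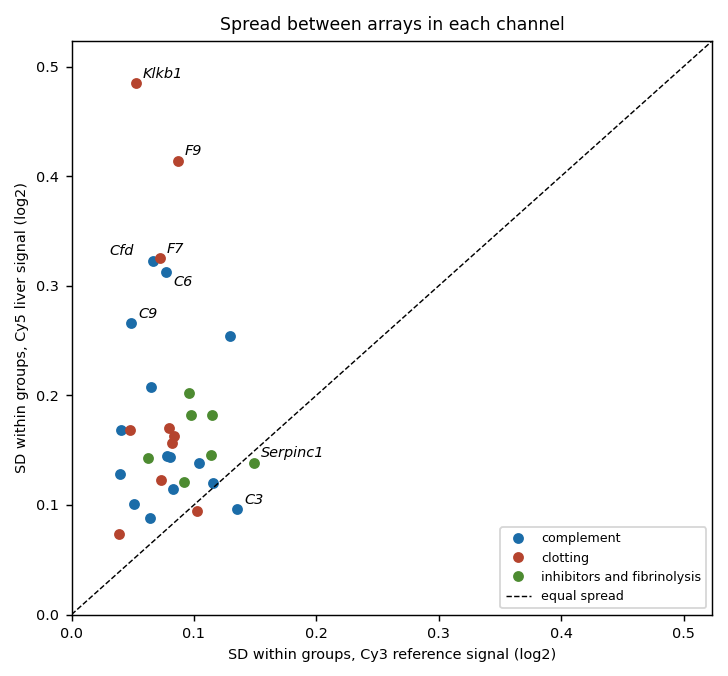
SD within groups of the Cy5 liver signal against that of the Cy3 reference signal (log2, quantile-normalized per channel, 4 arrays per group) for the 32 genes. Klkb1 lies highest at 0.48 in Cy5 against 0.05 in Cy3, and C3, F2 and Serpinc1 fall below the line of equal spread.

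Chains that are assembled into 1 protein were next set against each other over the 8 arrays, in 5 pairs. C8a and C8b correlated at r = 0.88 (exact permutation p = 0.00526, 0.0263 adjusted over the 5 pairs) and rho = 0.62 (exact permutation p = 0.115, adjusted 0.405). Both chains were low on control replicates 1 and 2, and without these, the arrays farthest from the C8a median, r was 0.33 (exact permutation p = 0.550), so the relation rests on them. It also rests on the brighter C8a probe: the dimmer one gave r = 0.22 and rho = 0.21 with C8b (exact permutation p = 0.592 and 0.619), and r = -0.02 with the brighter C8a probe (exact permutation p = 0.968). Within the slide's rows of 4 arrays r was 0.98 and 0.69, and with Cy5 alone it was 0.46 (exact permutation p = 0.236). Fga and Fgg gave r = 0.66 and rho = 0.55 (exact permutation p = 0.0804 and 0.171, adjusted 0.201 and 0.405), with r = 0.77 without the 2 farthest arrays (exact permutation p = 0.0750). Within rows r was 0.91 and 0.52. The Cy5 channel alone gave r = 0.78 for this pair (exact permutation p = 0.0247, adjusted 0.123).

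Fgb gave a negative r with both partners. It was -0.37 with Fga and -0.21 with Fgg (rho -0.33 and -0.26; exact permutation p = 0.353 and 0.597 for r, 0.428 and 0.536 for rho, all adjusted values over 0.5). Without the 2 farthest arrays r was -0.49 and -0.43; within rows it was -0.92 and -0.61 with Fga, -0.66 and 0.28 with Fgg. With median centring these turned to 0.63 and 0.72, and with Cy5 alone to 0.35 and 0.27. The value table gave -0.06 and 0.09, so the sign depends on the processing. C4bpa and C4bpb gave r = 0.35 and rho = 0.48 (exact permutation p = 0.406 and 0.243, adjusted 0.507 and 0.405), 0.32 without the 2 farthest arrays, and 0.60 and 0.27 within rows.

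**Figure D4:**
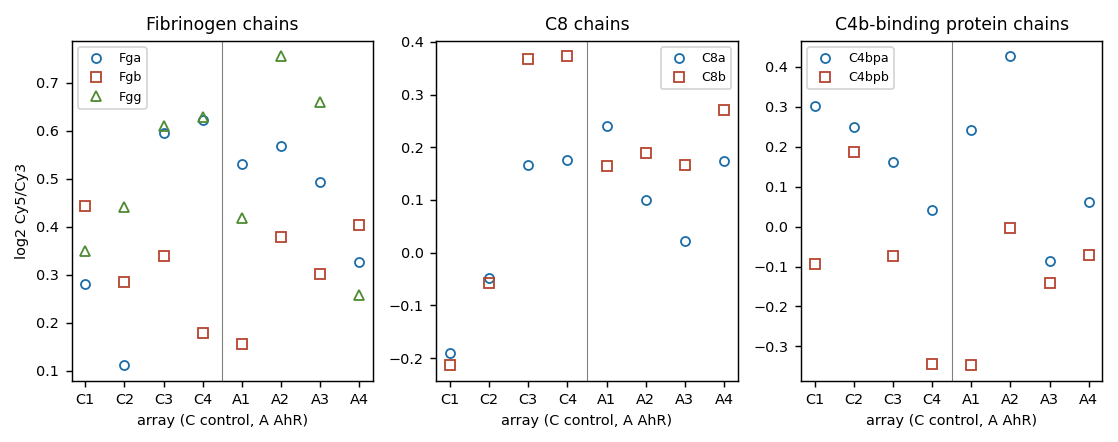
Log2 Cy5/Cy3 of the chains of fibrinogen, C8 and C4b-binding protein on each array, control replicates 1 to 4 (C1 to C4) and AhR replicates 1 to 4 (A1 to A4). C8a and C8b are both lowest on control replicates 1 and 2, at -0.19 and -0.05 for C8a and -0.21 and -0.06 for C8b.

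RefSeq promoter windows were at hand for 30 of the 37 genes, 26 of them measured. C5, F5, F11 and F13b, not measured, held no match to the 3 motifs. Shares of the set count genes, of which Fga had 2 windows, and the shares set against them count single windows. TTGCNNAA lay in 11 of the 30 genes (36.7%), against 10.6% of all 33469 windows of the same length. CTGGGAA lay in 8 (26.7% against 11.3%). GCGTG, the core letters bound by the AhR, lay in 5: Mbl2, Masp1, C4bpa, Klkb1 and Serpinf2 (16.7% against 29.7%). In the order just given, the AhR minus control differences of these 5 genes were -0.18, 0.14, -0.03, -0.41 and 0.02, with 2 above 0 and 3 below. Both positive signs depended on the setting. Masp1 was at -0.02 with the mean over its probes, and Serpinf2 at -0.02 with Cy5 alone. Letter matches describe these windows and are not binding sites.

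The ratios to the reference were close to 0 for most of the set. Loess within each array centres the ratios of all probes near 0 at each signal level. Closeness to 0 therefore does not show equal levels in liver and reference. Before normalization, mean Cy5 and Cy3 signals were 363768 and 127084 units for C3, and 25396 and 26182 for Kng1. The mean log2 ratio over 8 arrays was above 0 for 21 of 32 genes, with a median of 0.09. C3 was highest, at 0.75 ± 0.15 (SD, n = 8), followed by Fgg at 0.52 ± 0.17 and F2 at 0.47 ± 0.17, and Fgg and F2 lie within each other's SD. Kng1 was lowest, at -0.75 ± 0.19, and F7 next, at -0.38 ± 0.32. C3 stayed highest and Kng1 lowest in all 5 ways of processing, at 0.44 to 1.18 and -0.75 to -0.42. Median centring raised the set's median to 0.38, with 30 of 32 above 0; it also raised that of all named genes from 0.01 to 0.14, and that of the 439 named genes at least as bright as the set's median from 0.08 to 0.42. Fgb, at 0.31, was at -0.01 with Agilent processed signals. A ratio does not rank genes by abundance, and no dyes were swapped, so these values are open to dye bias.

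**Figure D5:**
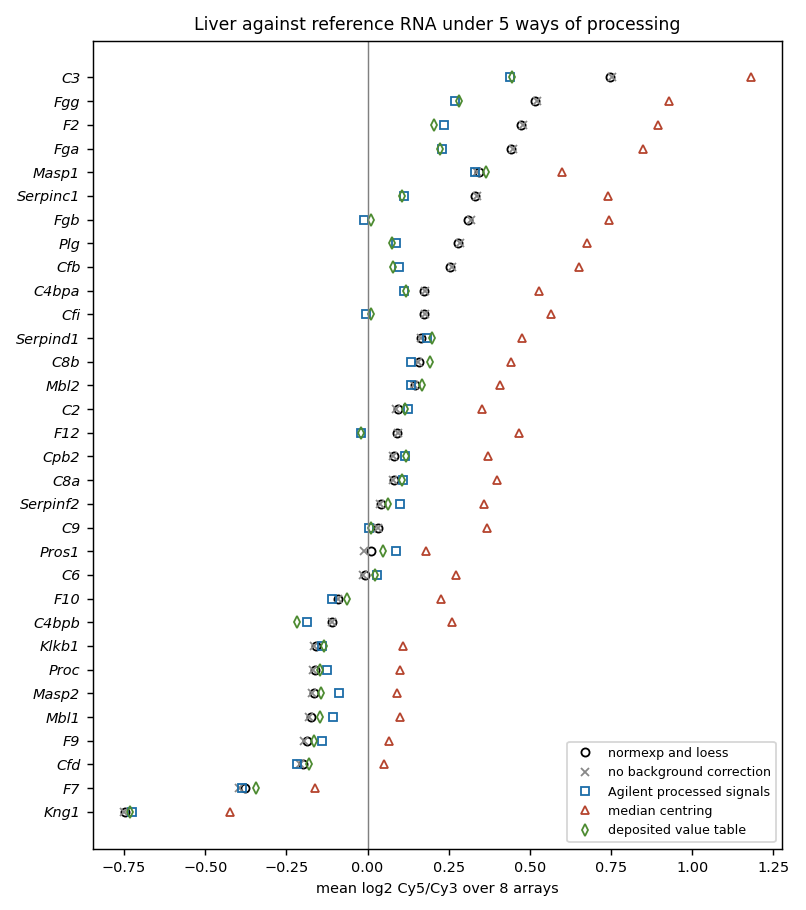
Mean log2 Cy5/Cy3 over 8 arrays of each measured gene under 5 ways of processing the scans, ordered by the value after normexp and loess. C3 lies at the top, at 0.75, and Kng1 at the bottom, at -0.75, and median centring shifts the genes upward.

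Further genes of these pathways, outside the set, had no call either. Of 48 listed, 38 were measured, 23 with higher and 15 with lower means in AhR and a median difference of 0.05; 0 passed limma's adjusted p and 0 an unadjusted p under 0.05. The 5 of smallest p were Ggcx, the carboxylase that activates vitamin K-dependent factors, at -0.17 (SE 0.10), Tfpi, the tissue factor pathway inhibitor, at -0.23 (SE 0.15), Procr, the protein C receptor, at 0.25 (SE 0.17), Hpn, the protease hepsin, at 0.21 (SE 0.15), and F8, clotting factor VIII, at 0.14 (SE 0.11). Among transcription factors known for liver promoters, Hnf4a differed by 0.17 (SE 0.11), Cebpa by 0.14 (SE 0.16), Cebpb by -0.12 (SE 0.12) and Stat3, the mediator of interleukin-6, by -0.03 (SE 0.09). Foxa2, Onecut1 and Nr1i2 differed by -0.22 (SE 0.18), 0.24 (SE 0.62) and -0.04 (SE 0.15), and none of the 7 passed. Their median difference was -0.03, and 0.06 with median centring. The 15 acute phase genes, fibrinogen included, had a median difference of 0.01, 9 of them higher in AhR (7 to 12 over 4 other ways of processing). Of these, 2 had an unadjusted limma p under 0.05 and none an adjusted one: Hamp, the iron hormone hepcidin, at 0.68 (SE 0.17) and Lcn2, the iron-scavenger binding lipocalin, at 0.47 (SE 0.17), adjusted p = 1.00 for both. Of all named genes, 1.62% had an unadjusted limma p under 0.05.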

How the data were processed

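Liver RNA (200 ng labelled) was hybridised with a reference RNA on 2-colour Agilent arrays. Median spot and background signals were used; these intensity values came from the scanner tables that the authors deposited, which Feature Extraction 10.7.3.1 had made, per the file headers. The processed signals there were background-subtracted and dye-normalized. A second deposited table holds log2 values of unstated scale, and its columns followed the ratio of unsubtracted Cy5 over Cy3 after loess (r 0.990 to 0.994 across probes). Spots were corrected by normexp (offset 50) and normalized by loess within each array (limma 3.58.1, R 4.3.3); control spots and flagged outliers had weight 0. Spots of a probe were averaged, and 17859 of 30367 probes passed the filter on Cy5. Per array, 56.2% to 62.0% of probes exceeded background clearly in Cy5, by the deposited flags; the number of arrays limits the precision. RefSeq accessions, without versions, named 18004 probes through the GRCr8 gene table; promoter sequences are RefSeq's of the same build.

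AhR was compared with control by limma (lmFit and eBayes, unpaired, Benjamini-Hochberg over all kept probes), and single genes also by a two-sided exact permutation test, whose smallest p with 4 arrays per group is 0.0286. The procedure was tested on simulated data. The same sample numbers in both groups marked columns of the slide. The labels do not say that they mark litters or days, so no pairing was used. Deviations of same-numbered arrays correlated at -0.37 to 0.05, and those of differently numbered arrays at -0.32 to 0.28. So few arrays cannot exclude a pairing. The genes and lists were chosen with earlier results of these data known. Values on every array are given for the 2 genes of smallest p in each role, all genes of fibrinogen and of C3 and its convertases, and the 3 of largest SD; other genes by difference and SE. The range of F2, the acute phase genes Hamp and Lcn2 and the markers Dcn and Tie1 were named after their values were seen. One listed item is not reported here. Alternatives covered background, normalization, channel, value table, filter, probe choice, variance model, blocks and each array left out.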

Additional observations from a re-analysis of the deposited data

Results flagged for a closer look

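Among 64 groups of 4 arrays (32 genes in control and in AhR), 2 held 1 array far from the other 3 by Dixon's criterion at the 95% level, where chance marks about 1 group in 20. F9 on AhR replicate 4 was 0.53, and the nearest AhR array was -0.48. F9 was read from 1 spot per array, so that its spot error was not measured. Mbl2 on control replicate 1 was 0.49, and the nearest control array was 0.17; the standard error of an Mbl2 value from its 2 spots was 0.03.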

How the results depend on the processing

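None of the 32 genes passed limma's adjusted p of 0.05 under 11 other settings of background, normalization, channel, value table, filter, probe choice, variance or block, or with any 1 array left out (lowest adjusted p 0.913). The number with an unadjusted p under 0.05 was 0 under those settings and 0 to 2 with 1 array left out: Kng1 and Klkb1 without control replicate 2, Pros1 without AhR replicate 2 and F9 without AhR replicate 4. With the replicate number as a block (replicate block), the median difference over the genes was unchanged at -0.02 and 0 genes were called; the samples share only a number, and 0 of 8 arrays correlated best with the array of their own number. The median difference was -0.03 to 0.01 under the other settings, turning positive with median centring, and -0.06 to 0.02 with 1 array left out, positive without control replicate 3. The sign of the difference held under all 11 other settings for 22 genes, and with each array left out as well for 10. In the 2 rows of the slide 21 of 32 genes had the same sign, with medians of -0.00096 and -0.0028. Over all probes, the count with an unadjusted p under 0.05 was 288, 172 with median centring, 715 with no filter on dim probes and 194 to 817 with 1 array left out (817 without control replicate 4 and 505 without AhR replicate 4); limma called 0 at an adjusted p of 0.05.

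The Fga and Fgg correlation was 0.76 with Agilent processed signals, 0.74 with the value table and 0.89 with median centring (exact permutation p = 0.0339, 0.0391 and 0.00345; adjusted 0.0848, 0.0977 and 0.00862). The C8a and C8b correlation was r = 0.86 to 0.96 and rho = 0.69 to 0.93 under the 4 settings that use both channels. With Cy5 alone rho was 0.38. Why median centring changes these correlations was not tested. With the mean of both C8a probes the C8a and C8b correlation was 0.73 (exact permutation p = 0.0389); the fits with other C8a probes were chosen after seeing the data. All 32 genes were well above background in both channels.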

Other observations

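Dbp, an output gene of the circadian clock, had its lowest value, -2.21, and its highest, 1.41, on AhR replicates 4 and 1, and after the values were seen each of the 32 genes was set against it over the 8 arrays. C6 had the largest correlation, r = 0.87 and rho = 0.86 (exact permutation p = 0.00565 and 0.0107; adjusted over 32 relations 0.112 and 0.343). F9 ran the other way, r = -0.85 and rho = -0.76 (exact permutation p = 0.00702 and 0.0368; adjusted 0.112 and 0.588). F7 gave r = -0.73 and rho = -0.62 (exact permutation p = 0.0475 and 0.115; adjusted 0.507 and 0.782). None of the 32 relations passed after adjustment. Without AhR replicates 1 and 4, the arrays farthest from the median of Dbp, r was 0.86 for C6 (exact permutation p = 0.0278), -0.67 for F9 (p = 0.144, exact permutation) and -0.56 for F7 (p = 0.249, exact permutation). Within the slide's rows of 4 arrays, r was 1.00 and 0.81 for C6, -0.83 and -0.89 for F9, and -0.996 and -0.684 for F7. The labels used here give no time of day for the samples.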
